A study of Mus musculus with 6 samples.

Results

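The 32 genes described here encode enzymes and regulators of cholesterol and fatty acid synthesis. They were chosen by symbol as known targets and partners of the sterol regulatory element-binding proteins (SREBPs). The rule uses no measured value, but the list was proposed with earlier results of these data known, so its lean is a description. They are 32 of the 57180 gene rows of the deposited table. All 32 were among the 14605 genes that passed the filter on low counts. Expression was measured by stranded, poly(A)-selected mRNA sequencing in GC-1 spg cells, an immortalised mouse line that the labels describe as germ cells from testis. The series compared 3 libraries labelled SNHG1 overexpression with 3 vector control libraries, collected 24 h after transfection. SNHG1 is a small nucleolar RNA host gene that gives rise to a long non-coding RNA. The treatment field reads non-obstructive azoospermia, a form of male infertility, in all 6 libraries. Cell line, tissue and that field are therefore shared by the groups, and the labels separate them only by the construct. The replicates are not said to be separate cultures, so the spread behind each p-value may be technical only.

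Cells make cholesterol from acetyl-CoA through mevalonate, isoprenoid diphosphates, squalene and lanosterol, and make fatty acids from cytosolic acetyl-CoA through malonyl-CoA. When sterols are low in the endoplasmic reticulum, SCAP escorts the SREBP precursors to the Golgi, where they are cut and release transcription factors for both pathways. INSIG proteins hold the complex back when sterols are plentiful. In the testis, cholesterol is the precursor of androgens, and its late intermediates include meiosis-activating sterols.

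The promoters of the genes that passed the test, and of the gene whose window matches a sterol element, are shown. RefSeq promoter windows (GRCm38.p6, 250 bases before to 50 after the start site) were matched by symbol for 25 of the 32 genes, in 31 windows. No window was matched for Fads1, Fdft1, Fdps, Scd1, Scd2, Sqle and Stard4. In 24 of the 31 windows the first 30 bases after the start were found in an annotated transcript of the gene. The sequences run 5′ to 3′ on the gene's strand, and capitals mark matches to the sterol regulatory element TCACNCCAC and to CCAAT, the box bound by NF-Y, a common partner of SREBPs, on either strand. The windows are chr13:119690101-119690400 on the plus strand for Hmgcs1, chr8:122443373-122443672 on the minus strand for Mvd and chr9:54661836-54662135 on the minus strand for Acsbg1.
Hmgcs1: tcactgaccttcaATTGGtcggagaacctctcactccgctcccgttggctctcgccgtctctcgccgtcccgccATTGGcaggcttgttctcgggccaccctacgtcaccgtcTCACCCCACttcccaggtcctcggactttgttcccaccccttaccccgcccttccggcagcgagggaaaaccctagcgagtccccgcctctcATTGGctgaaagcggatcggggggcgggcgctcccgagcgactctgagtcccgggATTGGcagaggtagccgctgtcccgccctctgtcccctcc
Mvd: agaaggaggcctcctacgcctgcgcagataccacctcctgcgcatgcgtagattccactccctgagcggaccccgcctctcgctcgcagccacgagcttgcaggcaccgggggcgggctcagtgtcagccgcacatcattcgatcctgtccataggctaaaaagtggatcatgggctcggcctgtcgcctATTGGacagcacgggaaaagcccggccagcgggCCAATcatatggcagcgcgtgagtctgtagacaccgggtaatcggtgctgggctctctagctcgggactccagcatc
Acsbg1: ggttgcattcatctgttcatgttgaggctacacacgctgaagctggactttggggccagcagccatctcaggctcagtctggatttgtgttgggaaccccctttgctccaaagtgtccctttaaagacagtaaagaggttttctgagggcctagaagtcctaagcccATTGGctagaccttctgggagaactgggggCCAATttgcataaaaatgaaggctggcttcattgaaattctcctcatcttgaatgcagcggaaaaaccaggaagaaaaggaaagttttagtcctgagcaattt

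The Hmgcs1 window was the only member window with TCACNCCAC, which begins at position -137 from its start site. That element was found in 1.24% of all 32851 windows and in 3.23% of the member windows, that is in 1. The CCAAT box was present in 21 of 31 member windows (67.7%), against 37.4% of all windows and 38.8% of the 12236 windows of tested genes. It occurs in both the Mvd and the Acsbg1 window. The Sp1 box GGGCGG was in 74.2% of member windows, against 35.7% of all windows and 62.4% of those of tested genes. The E-box CACGTG was in 19.4%, against 7.15% and 9.8%. Both strands were searched, and none of these letter matches shows that a factor binds there. Only these exact letters were searched, so a window without a match may hold another form of an element.

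Total counts ran from 15521900 to 21095427 per library. Levels are given as CPM, counts scaled to the library's total over tested genes and a normalisation factor. Snhg1 stood at 24.0, 26.4 and 25.3 CPM in the libraries labelled overexpression and at 22.1, 25.9 and 20.9 CPM in the vector libraries. Its log2 fold change of 0.14 ± 0.10 (SE) did not pass (edgeR, adjusted p = 0.52), so the counted gene does not check the labels. The groups are therefore called the labelled and the vector libraries. On the second principal component, which held 19.3% of the variance, labelled replicate 1 had a score of 24.88, and labelled replicates 2 and 3 had -7.28 and -11.69. Of 10 germ cell markers, 5 (Ddx4, Kit, Sall4, Sohlh1 and Zbtb16) had no count in any library, and the summed level of all 10 was 1.61 to 2.93 CPM. The germ cell label is thus not borne out by these markers. The 8 peritubular and fibroblast markers summed to 18300 to 19200 CPM in the labelled and 21800 to 23200 CPM in the vector libraries, with Thy1 at 0. Of these 8, the collagen genes Col1a2 (log2 fold change -0.30) and Col3a1 (-0.52) fell and Pdgfra rose (0.47), by edgeR (adjusted p = 0.00797, 0.0103 and 0.0143), and Col1a2 made up most of the sum. The 7 Sertoli cell markers summed to 606 to 704 against 582 to 617 CPM with Cldn11 and Wt1 at 0. Rhox5 made up most of that sum, at a mean of 594 against 533 CPM. The 7 Leydig cell markers summed to 2.28 to 3.01 against 2.33 to 2.84 CPM with 5 of them at 0. The 9 macrophage and blood markers summed to 20.4 to 22.7 against 19.4 to 21.3 CPM with Tyrobp at 0. Lyz2 made up most of that sum, at a mean of 15.3 against 15.4 CPM. The 5 adipocyte markers summed to 0.311 to 0.514 against 0.194 to 0.488 CPM with Adipoq, Lep and Plin1 at 0. The labels name only GC-1 spg cells, and whether any other cell type was present was not tested. In bulk RNA, fewer cells of a type and less RNA per cell cannot be told apart.

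In the vector libraries the pathway genes spanned a wide range of levels. To compare genes, CPM was divided by the length of the longest coding transcript in kilobases (kb). Scd2, a stearoyl-CoA desaturase that makes monounsaturated fatty acids, was the most abundant at 308 CPM per kb, with a range of 301 to 322 over the 3 vector libraries. Squalene epoxidase Sqle followed at 127 CPM per kb (121 to 130), clear of farnesyl diphosphate synthase Fdps at 99.0 (97.4 to 99.9). The levels of Fdps and the delta-6 desaturase Fads2 (96.9 CPM per kb, 94.5 to 98.1) overlapped, and Insig1 followed at 90.8 (88.8 to 94.5), its range meeting that of Fads2. Scd1 stood at 36.3 CPM per kb (34.8 to 38.8), well below its paralog Scd2. The lowest were Acsbg1, an acyl-CoA synthetase of the bubblegum family, at 2.77 CPM per kb (2.51 to 3.05) and the sterol C14-reductase Tm7sf2 at 4.94 (4.55 to 5.17). Within the sterol branch the levels did not follow the order of the steps: Lss, which closes squalene epoxide to lanosterol, was at 13.1 CPM per kb (12.9 to 13.3), next to the very abundant Sqle.

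**Figure D1:**
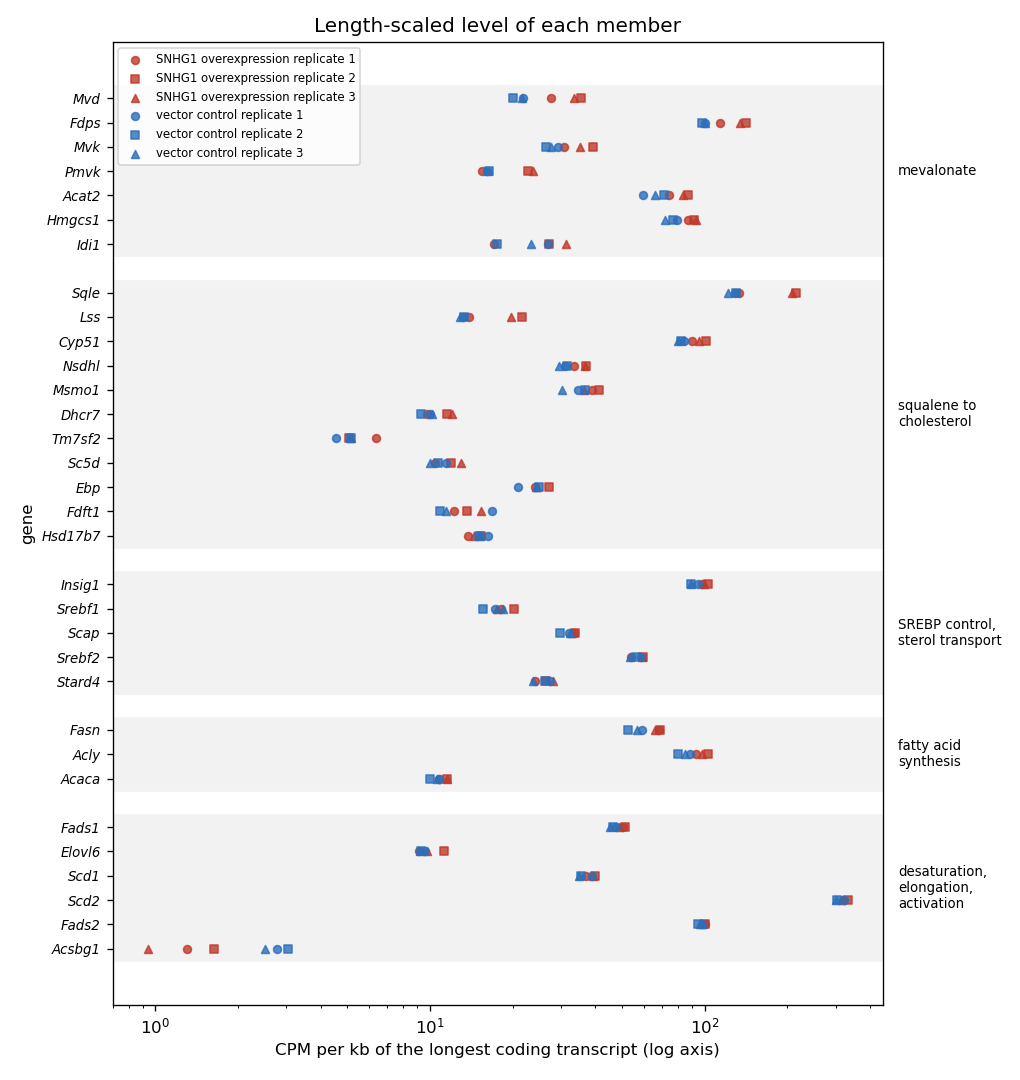
Length-scaled level of each of the 32 genes (CPM per kb of the longest coding transcript, log axis) in the 3 labelled (red) and 3 vector (blue) libraries, grouped by role. Scd2 lies highest, with 308 CPM per kb in the vector libraries, and Acsbg1 lowest, with 2.77.

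In the labelled libraries 1 of the 32 genes rose and 1 fell. Mvd, the mevalonate diphosphate decarboxylase, rose 1.52-fold and Acsbg1 fell to 0.468 of its vector level. The quasi-likelihood test of edgeR, with adjustment over all tested genes at 0.05, called 1.54% of all tested genes higher and 0.856% lower. The member counts of 1 and 1 are near that background. The other 30 did not pass, but most leaned the same way: 30 of the 32 log2 fold changes were above 0, against 51.3% of all tested genes. The median was 0.15, against 0.01 over all tested genes. At an unadjusted p under 0.05, 13 members were higher and 1 lower, against 8.26% and 8.71% of all tested genes. The groups did not overlap, with the labelled libraries higher, for 14 members, against 11.4% of all tested genes, and with them lower for 1, against 12.3%. These counts describe the list, whose members share regulators and are not independent. DESeq2 called 7 members higher and 1 lower, where it called 2.46% and 1.96% of all tested genes, and limma-voom called Mvd and Acsbg1, where it called 2.38% of them.

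**Figure D2:**
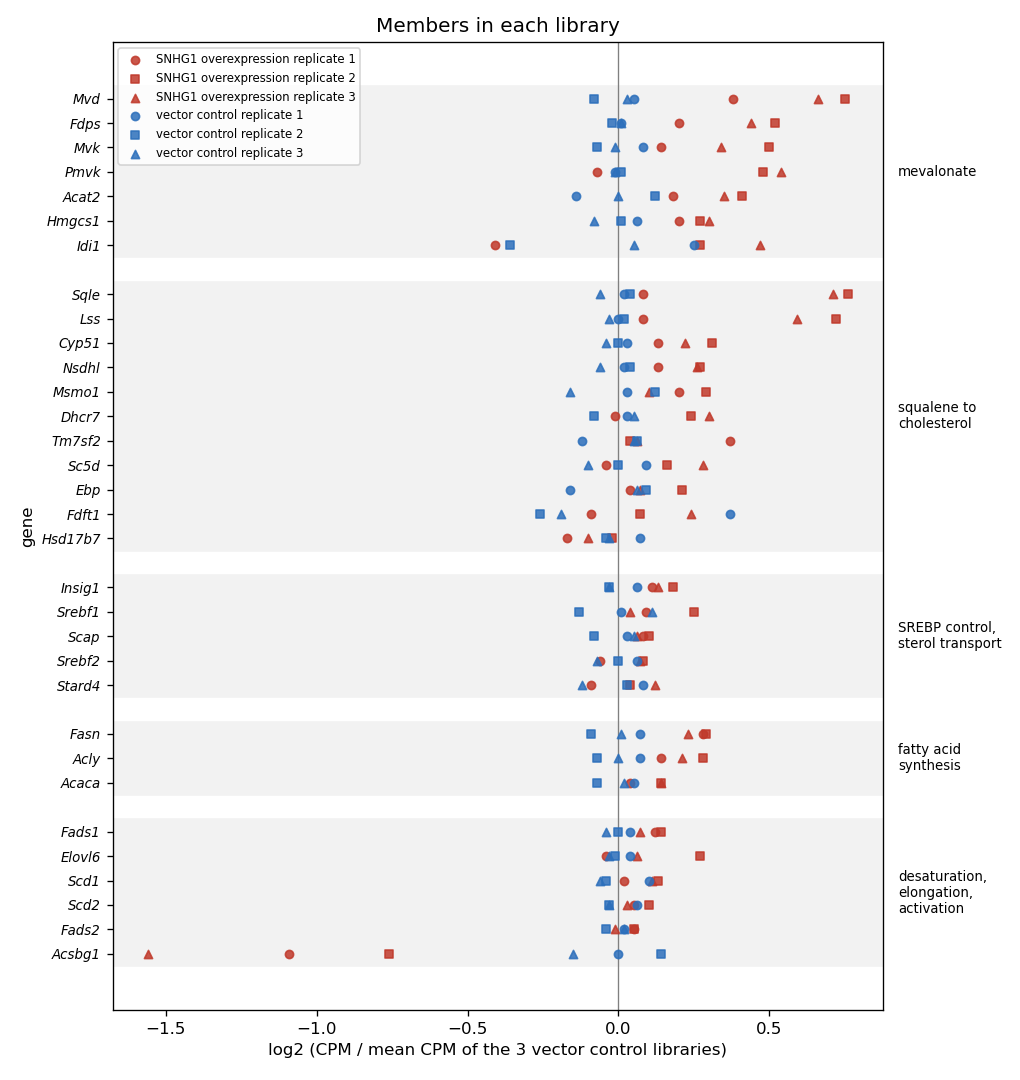
Level of each of the 32 genes in every library as log2 of CPM over the mean CPM of the 3 vector libraries, grouped by role, with red for labelled and blue for vector libraries and 1 symbol per replicate. Mvd lies to the right and Acsbg1 to the left in all 3 labelled libraries, and red circles (labelled replicate 1) often lie nearest to the vector libraries.

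The summed levels of each role differed between groups by different amounts. The 7 mevalonate enzymes summed to 796, 945 and 936 CPM in labelled replicates 1 to 3 and to 734, 712 and 709 CPM in the vector libraries, a ratio of 1.24. The 11 enzymes from squalene synthesis to cholesterol summed to 1177, 1522 and 1465 CPM against 1147, 1125 and 1073 CPM, also a ratio of 1.24. In both sums every labelled library lay above every vector library, with labelled replicate 1 close to the vector range, at 1.11 and 1.06 times the vector mean. The 3 genes of fatty acid synthesis summed to 1197, 1255 and 1205 CPM against 1086, 981 and 1044 CPM, a ratio of 1.18 without overlap, and 1.15 in labelled replicate 1, where it was above that of both sterol groups. The 5 genes of SREBP control and sterol transport had a ratio of 1.06 and the 6 desaturase, elongase and acyl-CoA synthetase genes one of 1.04, and in both the groups overlapped.

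**Figure D3:**
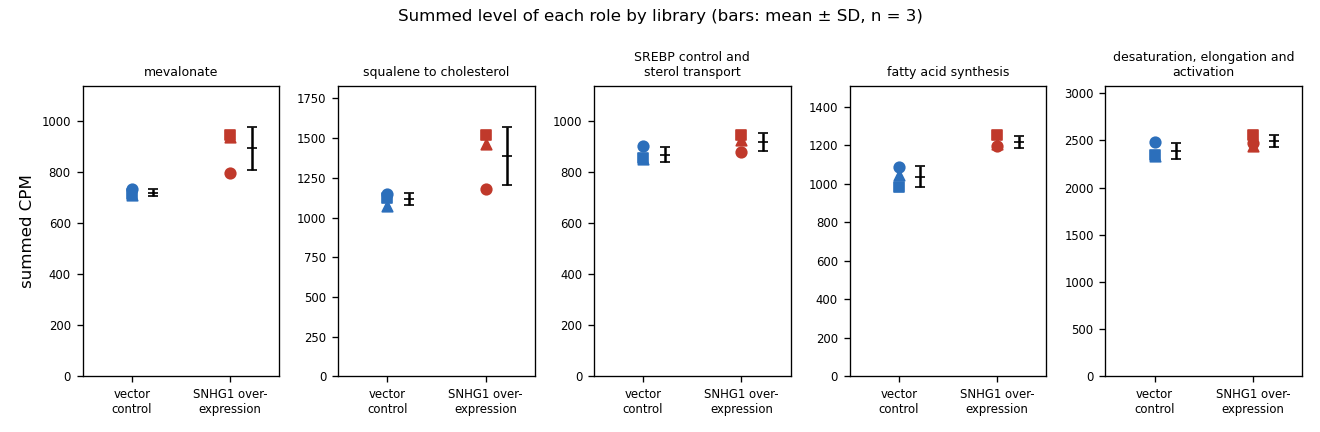
Summed CPM of the genes of each role in the vector (blue) and labelled (red) libraries, with circles, squares and triangles for replicates 1, 2 and 3 and black bars for the mean ± SD (n = 3). The sums of the mevalonate, squalene to cholesterol and fatty acid synthesis genes do not overlap between groups, and those of the other roles do.

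Among the mevalonate enzymes, Mvd was called and all 7 log2 fold changes were above 0, with a median of 0.34. Mvd (ENSMUSG00000006517, chromosome 8, 123160340 to 123170161 in the deposited coordinates, whose build is not named), which turns mevalonate diphosphate into isopentenyl diphosphate, stood at 48.5, 62.4 and 58.9 CPM in the labelled and 38.4, 35.2 and 37.9 CPM in the vector libraries. Every labelled library was above every vector library, and labelled replicate 1 was the lowest of the 3. The mean was 56.6 ± 7.24 against 37.2 ± 1.73 CPM (SD, n = 3), and the log2 fold change of 0.60 ± 0.10 (SE) passed (edgeR, adjusted p = 0.0215). The call was lost without labelled replicate 2 (adjusted p = 0.0785) or 3 (0.0733) and without vector replicate 1 (0.0905), 2 (0.102) or 3 (0.0894), by edgeR. It held without labelled replicate 1 (0.00417), and the log2 fold change stayed between 0.51 and 0.70 over all 16 alternatives.

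Fdps, which joins isoprenoid units to farnesyl diphosphate, stood at 157, 196 and 186 CPM in the labelled and 138, 135 and 138 CPM in the vector libraries. The groups did not overlap, and the spread was wider among the labelled libraries, but the log2 fold change of 0.39 ± 0.08 (SE) missed the threshold (edgeR, adjusted p = 0.0556). Hmgcs1, the cytosolic HMG-CoA synthase whose promoter holds the sterol element, was at 302, 316 and 323 against 274, 265 and 249 CPM. Its log2 fold change was 0.26 ± 0.06 (SE), and it missed the threshold as well (edgeR, adjusted p = 0.0697). Acat2, the cytosolic acetoacetyl-CoA thiolase of the first step, was at 167, 196 and 187 against 134, 160 and 148 CPM (edgeR, adjusted p = 0.12). DESeq2 called Fdps, Hmgcs1 and Acat2 (adjusted p = 0.00205, 0.021 and 0.0298). Mevalonate kinase Mvk, at 50.9, 65.0 and 58.4 against 48.6, 43.8 and 45.8 CPM, did not pass (edgeR, adjusted p = 0.134). Phosphomevalonate kinase Pmvk, at 18.5, 27.1 and 28.3 against 19.3, 19.6 and 19.4 CPM, had labelled replicate 1 below all vector libraries and did not pass either (edgeR, adjusted p = 0.305). The isomerase Idi1 had the lowest value of this role, a log2 fold change of 0.15 ± 0.23 (SE), with 51.7, 82.3 and 94.6 against 81.5, 53.2 and 70.6 CPM. Its libraries were mixed, and its direction turned to -0.03 without labelled replicate 3 and to just under 0 without vector replicate 2.

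From squalene to cholesterol, 0 of 11 genes passed edgeR and 0 limma-voom. DESeq2 called 2 (18.2%) higher and 0 lower, against 2.46% and 1.96% of all tested genes. By edgeR 5 (45.5%) were higher and 0 lower at an unadjusted p under 0.05, against 8.26% and 8.71%. The median log2 fold change was 0.18. Sqle, the oxygen-dependent squalene epoxidase that is a rate-limiting step of this branch, stood at 369, 591 and 574 CPM in the labelled and 355, 359 and 334 CPM in the vector libraries. Labelled replicates 2 and 3 were far above the vector libraries, while labelled replicate 1 was only just above them. The log2 fold change was 0.55 ± 0.16 (SE), which did not pass (edgeR, adjusted p = 0.141) and passed without labelled replicate 1 at 0.74 ± 0.05 (edgeR, adjusted p = 0.00083). Lss, lanosterol synthase, had the same arrangement of libraries, at 64.5, 101 and 92.2 against 61.4, 62.3 and 60.1 CPM. Its log2 fold change was 0.49 ± 0.15 (edgeR, adjusted p = 0.151) and, without labelled replicate 1, 0.66 ± 0.06 (SE; edgeR, adjusted p = 0.00321). DESeq2 called Sqle and Lss with all libraries (adjusted p = 0.00429 and 0.0154). Of the 16 alternatives, only these 2, DESeq2 and the fit without labelled replicate 1, called either gene. Labelled replicate 1 was the lowest labelled library for both, so leaving it out raises the fold change by construction.

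The lanosterol demethylase Cyp51 and the C4-decarboxylating dehydrogenase Nsdhl also had groups that did not overlap. Cyp51 stood at 353, 399 and 375 against 330, 322 and 314 CPM (edgeR, adjusted p = 0.117). Nsdhl stood at 72.7, 80.3 and 79.8 against 67.2, 68.4 and 63.8 CPM (edgeR, adjusted p = 0.133). For the other 7 genes of this stretch the groups overlapped. Of these, the C4-methyl oxidase Msmo1 had a log2 fold change of 0.20, the final reductase Dhcr7 of 0.18, Tm7sf2 of 0.17, the lathosterol desaturase Sc5d of 0.14, the sterol isomerase Ebp of 0.11 and squalene synthase Fdft1 of 0.08. Hsd17b7, the 3-ketosteroid reductase of the C4-demethylation complex, had the lowest value of the role at -0.10 ± 0.06 (SE), with 63.5, 70.6 and 66.7 against 74.9, 69.6 and 70.1 CPM. Fdft1 varied most within the vector group, at 62.0, 40.1 and 42.2 CPM against 45.1, 50.5 and 56.8 CPM, and its direction turned without labelled replicate 3 (-0.01) and without vector replicate 2 (-0.04) or 3 (-0.01).

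Among the genes that control SREBPs, and the sterol carrier Stard4, 0 of 5 passed edgeR, 1 had an unadjusted p under 0.05, and neither DESeq2 nor limma-voom called any. The log2 fold changes lay between 0.03 and 0.14. Insig1, which retains the SREBP complex and is itself a sensitive SREBP target, had the highest, at 0.14 ± 0.05 (SE), with 264, 278 and 267 CPM in the labelled and 255, 240 and 240 CPM in the vector libraries. The groups did not overlap, and it did not pass (edgeR, adjusted p = 0.246). Srebf2, the SREBP that mainly drives sterol genes, was at 273, 302 and 299 against 297, 286 and 272 CPM, and Srebf1, which mainly drives fatty acid genes, at 78.0, 87.1 and 75.6 against 73.9, 67.1 and 79.1 CPM. Both overlapped between groups. Scap, the sterol-sensing escort, was at 141, 142 and 139 against 135, 126 and 137 CPM, which did not overlap but differed by a log2 fold change of 0.08 ± 0.06 (SE; edgeR, adjusted p = 0.488). Stard4 was at 123, 135 and 143 against 139, 134 and 121 CPM.

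Of the fatty acid synthesis genes 0 of 3 passed edgeR and 0 limma-voom. DESeq2 called 1 (33.3%) higher and 0 lower, against 2.46% and 1.96% of all tested genes. By edgeR 2 (66.7%) were higher and 0 lower at an unadjusted p under 0.05, against 8.26% and 8.71%. Fasn, the multifunctional fatty acid synthase, stood at 683, 691 and 663 CPM in the labelled and 592, 530 and 569 CPM in the vector libraries. The labelled libraries lay close together and above all vector libraries. The log2 fold change was 0.27 ± 0.06 (SE; edgeR, adjusted p = 0.055). Without labelled replicate 1 it was 0.26 ± 0.06 (SE; edgeR, adjusted p = 0.052). DESeq2 called it (adjusted p = 0.0102), as did edgeR with GC and length trends removed (0.0179). Acly, which makes cytosolic acetyl-CoA from citrate, was at 411, 454 and 432 against 391, 355 and 374 CPM, without overlap (edgeR, adjusted p = 0.136). Acaca, the acetyl-CoA carboxylase that makes malonyl-CoA, had the lowest value of the role, 0.11 ± 0.06 (SE), with 103, 110 and 110 against 103, 95.3 and 101 CPM.

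In the group of desaturases, elongase and acyl-CoA synthetase, Acsbg1 was the gene that fell. Acsbg1 (ENSMUSG00000032281, chromosome 9, 54512161 to 54569154 in the same coordinates) activates long-chain fatty acids and is known from brain and steroid-producing tissue. It had 73, 99 and 52 counts in the labelled and 167, 136 and 133 counts in the vector libraries, that is 3.75, 4.70 and 2.70 against 7.96, 8.78 and 7.22 CPM. The groups were well apart, with labelled replicate 3 lowest. The log2 fold change of -1.10 ± 0.20 (SE) passed (edgeR, adjusted p = 0.0325). The call was lost without labelled replicate 3 (adjusted p = 0.0614) and without vector replicate 1 (0.12), 2 (0.124) or 3 (0.0841), by edgeR, with log2 fold changes from -1.30 to -0.91 over the alternatives. The other 5 genes of the role lay between 0.03 and 0.11 on the log2 scale. Scd2 was at 1740, 1810 and 1720 against 1760, 1650 and 1640 CPM and Scd1 at 178, 192 and 190 against 188, 171 and 168 CPM. Scd1 and Scd2 are close paralogs, so reads shared between them may be counted for either. Fads1, the delta-5 desaturase, was the highest at 0.11 ± 0.05 (SE), with 174, 177 and 168 against 165, 161 and 156 CPM, which did not overlap or pass (edgeR, adjusted p = 0.338). Fads2 and the elongase Elovl6 were at 0.03 and 0.10 on the log2 scale and overlapped between groups.

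Labelled replicate 1 held the lowest level of its group for 23 of the 32 genes (71.9%), against 34.9% of the 10005 tested genes with 10 CPM or more. It was lowest for 7 of 7 mevalonate enzymes and 9 of 11 later sterol enzymes. Its level over the mean of labelled replicates 2 and 3 was 0.584 for Idi1, 0.634 for Sqle, 0.667 for Lss, 0.67 for Pmvk and 0.80 for Mvd. The same ratio was 1.01 for Fasn, 0.988 for Scd2 and 1.01 for Acsbg1, and among the sterol enzymes it was 1.00 for Msmo1 and 1.25 for Tm7sf2. Without it, edgeR called 9 members higher and 1 lower, where it called 2.91% and 2.5% of all tested genes. The 9 were Acat2, Cyp51, Fdps, Hmgcs1, Lss, Mvd, Mvk, Pmvk and Sqle, all of them sterol enzymes, and the 1 was Acsbg1. The median over the 32 genes was then 0.18. For a gene with its lowest labelled level in that library, leaving it out raises the fold change by construction. Leaving out labelled replicate 2 gave 1 called member and leaving out any of the other 4 libraries gave 0. In those 5 fits 12 to 14 members had an unadjusted p under 0.05 (edgeR), counted in both directions together. The share of all tested genes at that level was not taken for these fits, so the count has no background. Those fits called 1.09% of all tested genes without labelled replicate 2, 1.18% without labelled replicate 3, and 0.828%, 1.01% and 0.957% without vector replicates 1, 2 and 3.

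**Figure D4:**
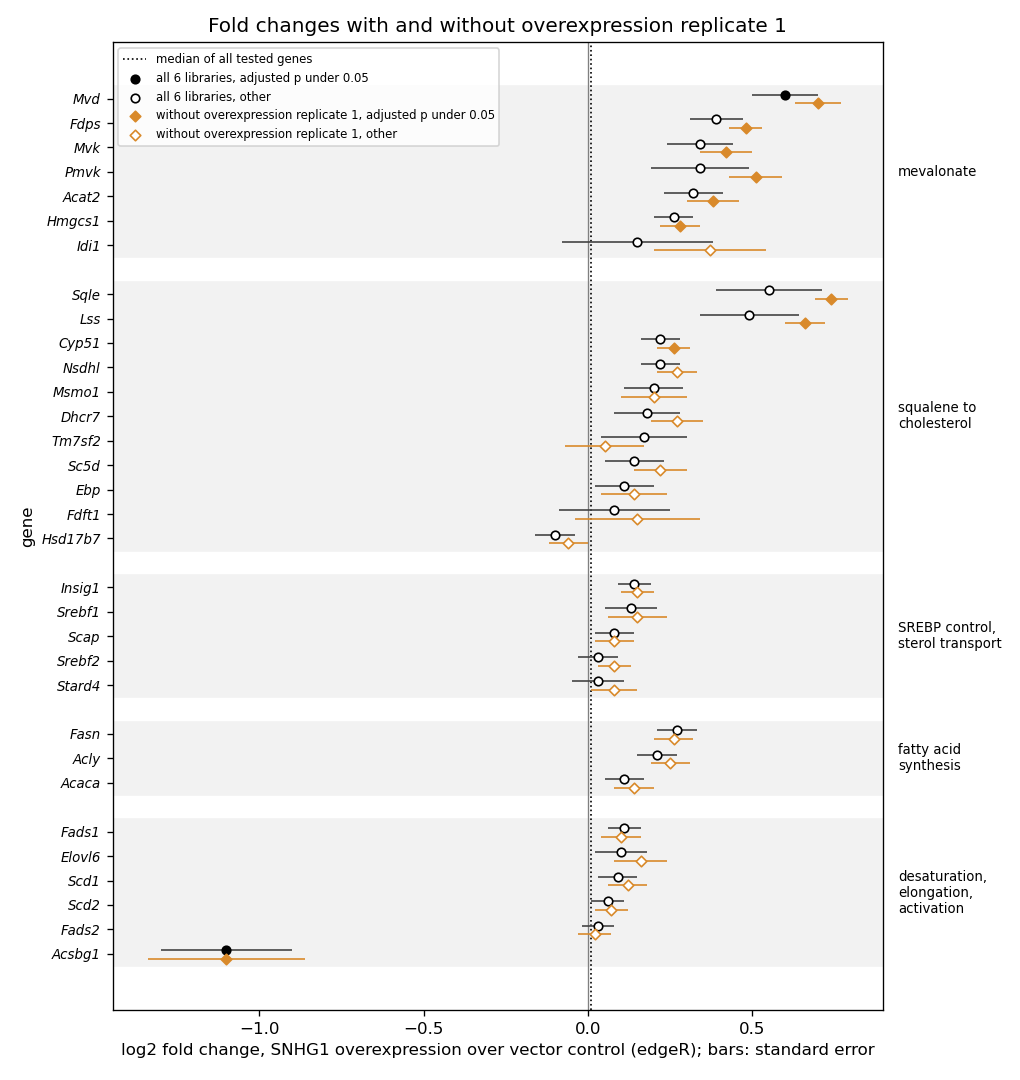
Log2 fold changes (± SE, edgeR) of the 32 genes with all 6 libraries (circles) and without labelled replicate 1 (diamonds), with filled symbols for an adjusted p under 0.05 and a dotted line at the median of all tested genes, 0.01. With all libraries Mvd and Acsbg1 are filled, and without labelled replicate 1 the filled symbols are those 2 and 8 further sterol enzymes.

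Base composition and length moved with the comparison over all genes. Over the 8194 tested genes with 20 CPM or more, log2 fold changes were higher at higher GC content (Spearman rho 0.39) and lower for longer transcripts (rho -0.29), across genes that share the same libraries. The members' transcripts had a median GC content of 51.4% against 50.0% and a median length of 3462 against 3315 bp. With both trends removed, 28 of 32 members were above 0, the median was 0.17, and edgeR called Acsbg1, Fasn, Hmgcs1 and Mvd, where it called 2.84% of all tested genes. Fads2 and Srebf2 then turned to -0.02 and -0.01. On the deposited coordinates, 5 members overlap the span of another gene with a mean of at least 20 counts: Fdft1 with Ctsb, Cyp51 with Akap9, Tm7sf2 with Vps51, Srebf1 with Rai1 and Srebf2 with Gm49502. No source used here states the strand setting of the counting, so their counts may include reads of the partner.

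Other lipid genes, in 8 lists of 133 genes of which 104 were tested, together had a smaller shift at the median than the 32 genes. That difference was not tested, and it did not hold for every list. The 7 tested genes of the efflux, oxysterol and esterification list had a median of 0.24, against 0.15 for the 32 genes. The acyl-CoA synthetases were at 0.14, and the lowest list, fatty acid oxidation, at -0.03. Of the 104, 2 rose and 0 fell, their median log2 fold change was 0.03, and 60 (57.7%) were above 0, against 0.01 and 51.3% for all tested genes. At an unadjusted p under 0.05, 17 (16.3%) were higher and 7 (6.73%) lower, against 8.26% and 8.71%. DESeq2 called 5 (4.81%) higher and 0 lower, against 2.46% and 1.96%. Mid1ip1, an activator of acetyl-CoA carboxylase, rose from 19.9, 18.8 and 17.6 CPM in the vector to 26.5, 24.0 and 25.1 CPM in the labelled libraries, by 0.42 ± 0.09 on the log2 scale (SE; edgeR, adjusted p = 0.048). That call was lost on leaving out each of the 6 libraries in turn (edgeR, adjusted p = 0.0567 to 0.167), without the filter (0.0741) and with GC and length trends removed (0.0967). Cpt1a, which admits fatty acids to mitochondria for oxidation, rose from 218, 200 and 207 to 291, 254 and 262 CPM, by 0.37 ± 0.07 (SE; edgeR, adjusted p = 0.034). It was lost on leaving out any library other than labelled replicate 1 (edgeR, adjusted p = 0.0645 to 0.138).

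The 14 tested sterol and isoprenoid enzymes outside the main list had a median of 0.05, with 0 called by edgeR and 1 by DESeq2. At an unadjusted p under 0.05, 3 were higher and 0 lower. Over all tested genes 8.26% were higher and 8.71% lower at that p, the background for this and the lists below. Of the cholesterol uptake and lysosomal export genes 0 of 15 passed edgeR, with 3 higher and 3 lower at an unadjusted p under 0.05 and 1 called by DESeq2. The lysosomal sterol carrier Npc2 was at 296, 282 and 293 against 256, 261 and 266 CPM (edgeR, adjusted p = 0.181). SREBP processing and sterol-regulated degradation had 0 of 11 called, 1 higher and 1 lower at an unadjusted p under 0.05, and 1 called by DESeq2. Its most abundant genes, the site-1 protease Mbtps1 and the ubiquitin ligase Marchf6, were at -0.09 and -0.24 on the log2 scale.

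In the efflux, oxysterol and esterification list 0 of 7 tested genes passed edgeR, with 1 higher and 1 lower at an unadjusted p under 0.05 and none called by DESeq2. Its most abundant genes by mean CPM over all 6 libraries, the LXR-beta receptor Nr1h2 and the phospholipid remodelling enzyme Lpcat3, were at 0.24 and 0.12 on the log2 scale. The cholesteryl ester hydrolase Nceh1, more abundant than Lpcat3 in the vector libraries and named after its values were seen, was at 51.2, 52.8 and 47.3 against 59.4, 65.6 and 58.8 CPM, without overlap (edgeR, adjusted p = 0.103). Among other fatty acid synthesis genes Mid1ip1 was the 1 called of 16, and the most abundant, the elongase Elovl5 and the enoyl reductase Tecr, were at -0.04 and 0.16. Of the acyl-CoA synthetases other than Acsbg1, 0 of 9 passed edgeR, 3 were higher at an unadjusted p under 0.05, and DESeq2 called none. Acsl5 was at 0.14 and Slc27a1 at -0.18, against -1.10 for Acsbg1, a difference that was not tested. Triglyceride synthesis and lipolysis had 0 of 14 called by edgeR, 2 higher and 1 lower at an unadjusted p under 0.05, and none by DESeq2, with the acyltransferase Gpat4 at 0.10 and the droplet protein Plin3 at 0. Of 18 fatty acid oxidation genes Cpt1a alone was called, the median was -0.03, and the trifunctional protein subunit Hadha was at -0.04.

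**Figure D5:**
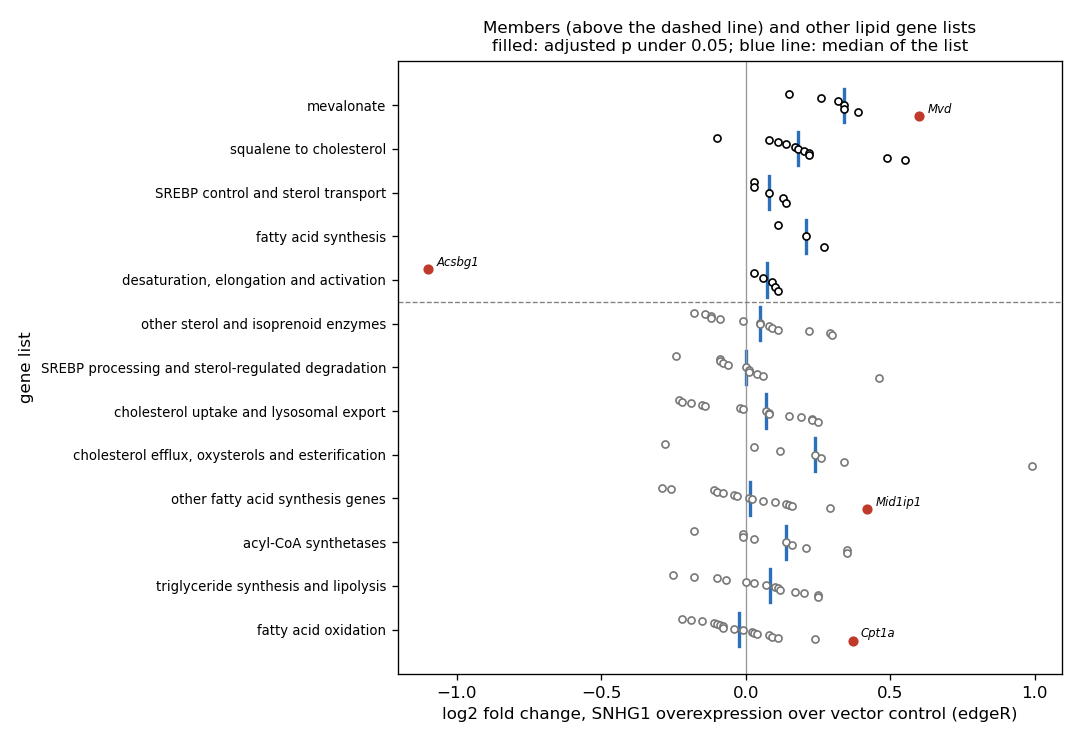
Log2 fold changes (edgeR) of the 32 genes by role, above the dashed line, and of the 104 tested genes of 8 other lipid lists, below it; 1 symbol per gene, filled for an adjusted p under 0.05, with a blue line at each list's median. The mevalonate list has the highest median of all lists, 0.34, and the fatty acid oxidation list the lowest, -0.03.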

How the data were processed

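Messenger RNA of GC-1 spg cells was sequenced in 3 libraries labelled SNHG1 overexpression and 3 vector control libraries, grouped by title. The authors deposited whole-number counts and FPKM values per gene. The tools named per the submitters' processing notes are StringTie, HISAT2 and SAMtools 1.3.1, with build GRCh38, although all 57180 identifiers are mouse. How reads were counted, and with which strand setting, is not stated in the sources. The deposited FPKM values scale by a gene length and the library's total count. They were only compared with the counts: the count per FPKM and total differed by at most 0.0698% between libraries. Rows without a symbol (525) held 0.194% of counts.

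The main test was edgeR 4.0.16 (R 4.3.3): quasi-likelihood F test on the counts, TMM factors (0.9961 to 1.0046), filterByExpr, no covariate, and adjustment by Benjamini and Hochberg over all tested genes at 0.05. CPM values are scaled by the library's total over tested genes and the TMM factors. By the full library totals, 1 count was 0.0474 to 0.0644 CPM, the step that limits precision for low genes. Lengths and GC content came from GENCODE M21 transcripts. Alternatives were other size factors, other filters, DESeq2 1.42.0, limma-voom (limma 3.58.1), robust dispersions, a replicate block, removal of GC and length trends, and leaving out each library. The fit was tested on simulated data. The members and lists were chosen with earlier results of these data known. All members are accounted for. Other genes are named if they passed or were among the 2 most abundant of their list by mean CPM over all libraries; some of these are not reported here.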

Additional observations from a re-analysis of the deposited data

How the results depend on the processing

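With 3 libraries per group, the calls of Mvd and Acsbg1 were lost in most fits with 1 library left out, while their directions held in all alternatives. The number of genes called was 350 and moved to 646 with DESeq2 and to 123 to 807 with 1 library left out. Members called numbered 2 and moved to 8 with DESeq2, 4 with robust dispersions, 4 with GC and length trends removed and 0 to 10 with 1 library left out. Other lipid genes called numbered 2 and moved to 5 with DESeq2, 1 without the filter and 0 to 8 with 1 library left out. The fits without a library have fewer samples, and the cause of the moves was not tested. The members' median log2 fold change stayed at 0.12 to 0.19 in all alternatives. The labels do not say whether replicate numbers pair the libraries. Deviations from the group means of same-numbered libraries correlated at -0.004, -0.03 and -0.021, and no library correlated best with its own number. Correlations this near 0, from 3 libraries per group, cannot decide whether the cultures were paired. With the replicate block 163 genes (1.12% of all tested genes), 1 member and 0 other lipid genes were called by edgeR. With GC and length trends removed as well, these counts were 166 (1.14%), 1 and 0. Of the other lipid genes, 20 and 22 had an unadjusted p under 0.05 in these fits (edgeR). The share of all tested genes at that level was not taken for them. The calls lost with the block included Mvd (adjusted p = 0.067, and 0.101 with the trends removed as well), Mid1ip1 (0.119 and 0.184) and Cpt1a (0.0599 and 0.0542), while Acsbg1 was still called. Directions turned only for genes near 0 that were not called. With 1 library left out, the ranges were -0.03 to 0.37 for Idi1, -0.04 to 0.30 for Fdft1, -0.0033 to 0.08 for Srebf2, -0.04 to 0.08 for Stard4 and -0.03 to 0.03 for Plin3. Idi1 moved to -0.03 without labelled replicate 3 and -0.0016 without vector replicate 2, and Fdft1 to -0.01, -0.04 and -0.01 without labelled replicate 3 and vector replicates 2 and 3. Stard4 moved to -0.02 and -0.04 without labelled replicate 3 and vector replicate 3, and Gpat4 to -0.02 without vector replicate 3. Srebf2 moved to -0.01 with GC and length trends removed, with or without the block, and to -0.0033 without vector replicate 3. Fads2 moved to -0.02 with the trends removed, with or without the block. Plin3 moved to -0.00044 with median-of-ratios size factors, -0.00046 with DESeq2, -0.01 with a filter of 1 CPM, -0.02 with the trends removed, with or without the block, and -0.03 to -0.02 without single libraries.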

Other observations

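Some regulators and enzymes of neighbouring lipid routes were not detected. Ch25h, which makes 25-hydroxycholesterol, the sterol 7-alpha-hydroxylase Cyp7b1, the lipogenic factor Mlxipl, the fatty acid oxidation regulator Ppara and the elongases Elovl2 and Elovl3 had 0 counts in all 6 libraries. The limit set by 0 counts, taken as 3 counts, was 0.142 to 0.193 CPM per library and covers counting error only. Abca1, the cholesterol exporter, was chosen after its values were seen: it had 39, 51 and 48 counts in the labelled and 26, 16 and 22 counts in the vector libraries. These are 2.00, 2.42 and 2.49 against 1.24, 1.03 and 1.19 CPM, which do not overlap. Its log2 fold change of 0.99 ± 0.20 (SE) just missed the threshold (edgeR, adjusted p = 0.0522), with adjusted p of 0.0404 to 0.18 over the alternatives.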
